A study of Arabidopsis thaliana with 24 samples.

Results

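Chilling of roots was followed here by comparing 4 arrays taken after 3 and 6 h at 4 °C with 4 arrays taken after 0.5 and 1 h. These 8 arrays, chosen by the tissue and time in their titles, are part of a series of 24. All plants were Arabidopsis thaliana Col-0 (stock N1092) and carried no other genotype or agent in the labels. Seedlings were kept at 24 °C, 50% humidity and 16 h days on Murashige and Skoog (MS) medium, and chilling began on day 16 after 3 h of light, in boxes set on ice. The whole series holds 12 combinations of tissue (roots or shoots) and time (0.5, 1, 3, 6, 12 or 24 h), with 2 arrays each. There was no group kept warm, so each change is relative to the first hour of chilling and not to unchilled roots. The later arrays were also taken later in the day, so the hours of chilling and the hour of the day cannot be told apart in any of these results. The labels do not say that the 2 arrays of a time came from separate plants or cultures, so the p-values cover the spread between samples alone, and that spread may be technical.

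Plant cells respond to a drop in temperature within minutes, through calcium entry and the activation of transcription factors. Among these are the CBF (DREB1) proteins, which bind the promoters of the cold-regulated (COR) genes, and zinc-finger proteins of the ZAT family. The COR genes encode dehydrins and other hydrophilic proteins that protect membranes and proteins during freezing, and their transcripts build up over hours. The growth of root cells depends on enzymes and expansins that loosen the cell wall.

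Levels are linear intensities of probe sets, and changes are differences of log2(intensity + 10), fitted with limma over all 24 arrays. Markers matched the tissue label. PYK10, a β-glucosidase of the root endoplasmic reticulum, lay between 2750.1 and 3874 on the 8 root arrays and between 496 and 752 on the 8 shoot arrays of the same times. The summed intensity of 5 measured green shoot markers (Rubisco activase, light-harvesting and Calvin cycle proteins) was 316 to 737 on root arrays and 21778 to 29934 on shoot arrays. Neither these 5 nor the 3 measured root markers passed the test between later and early root arrays, and 0 of the 8 had an unadjusted p under 0.05 by limma, the one tool run. The pair of 3 h root arrays differed most from each other, with an SD of the log2 difference of 0.44 against 0.28 to 0.31 at 0.5, 1 and 6 h. In bulk tissue, fewer cells of a type and less RNA per cell cannot be told apart.

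Among kept changes, the transcripts that rose outnumbered those that fell and moved further. A change was kept when its adjusted p was under 0.05 and all 4 later arrays lay beyond all 4 early ones. Of 22746 probe sets, 625 rose (2.75%) and 270 fell (1.19%). A log2 change of at least 1 in size was seen in 289 of the rises and 19 of the falls. The median change was 0.95 over the rises, -0.50 over the falls and -0.04 over all probe sets. On the adjusted p alone, 809 rose and 359 fell. Under looser rules the split went the other way. The sides were apart in 1035 probe sets upward and 1394 downward whatever the p. At an unadjusted p under 0.05 by limma, 884 of 13350 named genes were higher and 1296 lower. The kept change nearest the threshold had an adjusted p of 0.04998 and a log2 change of -0.30, and the nearest one left out (AT4G25370) had 0.05009 and -0.40. The share of rises was 69.8%, and 80.8% with arrays centred on their medians (709 rises and 168 falls). Without replicate 1 of the 3 h arrays, 741 rises and 624 falls were kept, 571 and 228 of them kept with all arrays too. Falls numbered 174 without replicate 1 of the 0.5 h arrays, 168 without replicate 2 of the 1 h arrays, and 170 and 166 without replicate 1 or 2 of the 6 h arrays.

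**Figure D1:**
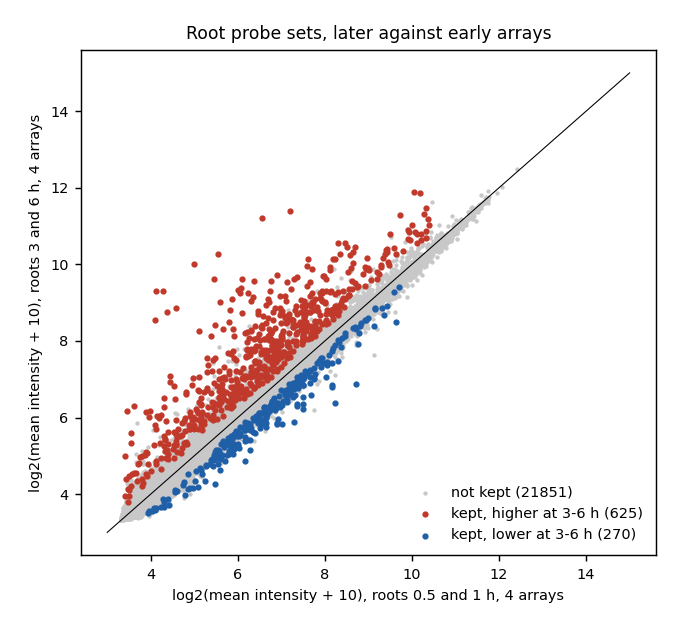
Mean intensity of each of 22746 probe sets on the early root arrays (0.5 and 1 h, horizontal axis) and on the later ones (3 and 6 h, vertical axis), both as log2(mean + 10), with the line of equal values. The 625 rises (red) have a median log2 change of 0.95 and the 270 falls (blue) -0.50.

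The largest rise of a named gene was that of AT5G62360, which encodes an inhibitor-family protein of the kind that acts on invertases or pectin methylesterases, enzymes of sugars and the cell wall. Its intensity was 2.91, 10.9, 11.3 and 12.2 on the early arrays and 134, 328, 910.3 and 1119 on the later ones (replicates 1 and 2 at each time, in order of time, here and below). All early values were dim and all later ones bright, with the 6 h pair above the 3 h pair, and the log2 change was 4.65 ± 0.22 (SE), adjusted p = 6.7e-10. It then stood at 1711 and 2247 at 12 h and 1379.6 and 1758 at 24 h. AT1G11210, whose product has a domain of unknown function, gave 4.39, 11.2, 15.9 and 11.4 early and 157, 266, 618 and 641 later (4.19 ± 0.15 (SE), adjusted p = 2.9e-11). The sides were again far apart. AT4G18280, annotated as related to glycine-rich cell wall proteins, gave 57.9, 49.5, 53.7 and 69.6 early and 312, 448, 895 and 986 later (3.17 ± 0.12 (SE), adjusted p = 4.6e-11). AT5G17850, of the sodium/calcium exchanger family, rose by 2.47, and AT4G29780 and AT1G25400 rose by 2.77 and 2.90.

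Signalling genes were among the largest rises. Calcium-binding proteins of the calmodulin-like (CML) family relay calcium signals. CML37 gave 13.3, 14.6, 34.8 and 35.4 early and 184, 141, 467 and 395 later (3.06 ± 0.20 (SE), adjusted p = 3.3e-08). CML38 gave 82.4, 38.0, 161 and 178 and 483, 258, 751 and 781 (2.28 ± 0.37 (SE), adjusted p = 0.00082), with replicate 2 at 3 h the lowest of its later values. Its call was lost with 3 h alone as the later side, with 1 h alone as the early side and in a 2-group fit of the 8 arrays. CML37 and CML38 were the kept changes among 7 measured CML genes, whose median change was 0.10 beside -0.04 over all named genes. Of 33 genes on a calcium signalling list 5 were measured, CML genes again among them. The same 2 were kept, and the others ranged from -0.36 (CML23) to 0.68 (AT1G76640, known as CML39). Over all 13350 named genes 314 rose and 164 fell, the shares to set beside these and all lists below. The lists were chosen with earlier results of these data known, so their counts are a description only.

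Ubiquitin ligases of the plant U-box (PUB) family mark proteins for breakdown in stress signalling. They gave 2 rises and 0 kept falls among 9 measured genes, beside 314 rises and 164 falls among all 13350 named genes. Of the 9, 2 had an unadjusted p under 0.05 downward by limma. PUB19, which acts in abscisic acid and drought responses, gave 35.2, 34.3, 37.5 and 45.7 early and 180.0, 312, 774 and 769 later (3.20 ± 0.23 (SE), adjusted p = 1.1e-07). Its 3 h values lay between the early and the 6 h values. PUB23, a regulator of immune and drought signalling, gave 213, 130.2, 313 and 202 and 345, 511, 480.5 and 501 (1.11 ± 0.23 (SE), adjusted p = 0.008), and its lowest later array was close above its highest early one. Its call was lost without replicate 2 at 1 h and with a pseudocount of 1. The same held with 3 h alone as the later side, with 1 h alone as the early side and in a 2-group fit of the 8 arrays. PUB24 and PUB26 passed on their adjusted p but overlapped, PUB24 upward (0.58 ± 0.14 (SE), adjusted p = 0.017) and PUB26 downward (-0.61 ± 0.17 (SE), adjusted p = 0.047), and PUB22 did not pass (0.20 ± 0.17 (SE), adjusted p = 0.61). PUB23 was also the kept change of 4 measured genes in a list of kinase modules and stress ubiquitin ligases. ATL5, a RING-type ligase and the kept change of 4 measured ATL genes, rose from 32.4, 36.8, 41.8 and 39.0 to 58.7, 74.5, 117 and 123 (1.07 ± 0.11 (SE), adjusted p = 5.9e-06).

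Among transcription factors, STZ (ZAT10), a zinc-finger repressor induced by cold, salt and drought, was already moving within the early side. Its intensity was 571 and 492 at 0.5 h, 1255 and 1033 at 1 h, 2182 and 2610.3 at 3 h and 2567 and 2569 at 6 h. The later values did not overlap the early ones, as the rule for a kept change requires (1.66 ± 0.18 (SE), adjusted p = 1.2e-05). STZ stood at 1868 and 1399 at 12 h and 1229.9 and 1347 at 24 h. WRKY6, known for roles in defence and phosphate supply, gave 117, 141, 143 and 173 early and 285, 189, 419 and 376 later (1.04 ± 0.22 (SE), adjusted p = 0.0088), and its call was lost with a pseudocount of 1. The WRKY6 call was also lost with 3 h alone as the later side, with 1 h alone as the early side and in a 2-group fit of the 8 arrays. WRKY6 was the single kept change of 6 measured WRKY genes. Of 34 genes on a list of early cold and stress transcription factors, 4 were measured. STZ and WRKY6 were the kept changes among these 4, with WRKY53 at 0.59 (adjusted p = 0.17) and WRKY22 at 0.16 (adjusted p = 0.57) not passing. The CBF genes are on this list, but no probe set had one of them as its only annotated gene. Their changes therefore cannot be read from these counts. Of 14 bZIP factors, 2 rose: BZIP53, which acts in proline and amino acid metabolism, by 0.50 ± 0.11 (SE), adjusted p = 0.011, and bZIP44 by 0.59 ± 0.13 (SE), adjusted p = 0.015. The BZIP53 call was lost without replicate 1 at 1 or 6 h or replicate 2 at 3 h, and that of bZIP44 without replicate 2 at 0.5, 1 or 6 h. GI, a component of the circadian clock, rose by 0.40 ± 0.11 (SE), adjusted p = 0.048, from 184, 191, 201 and 201 to 220.0, 256, 276 and 287. It was 1 of 2 measured clock genes, and with quantile normalization both were kept. Its call was lost with a pseudocount of 1 and without any single root array of the 8 other than replicate 1 at 3 h.

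**Figure D2:**
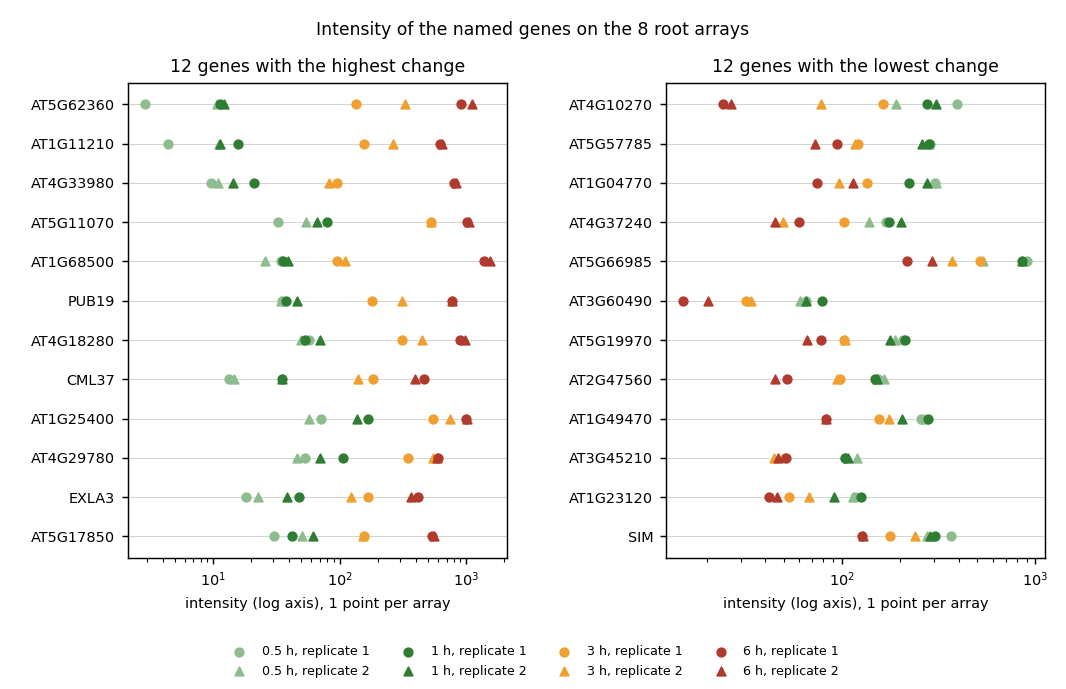
Intensity on each of the 8 root arrays, on a log axis, for the 12 named genes with the highest log2 change (left) and the 12 with the lowest (right). Colours are times and marker shapes are replicates. By the rule for a kept change, the 3 h and 6 h points of every gene lie beyond all 0.5 h and 1 h points.

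The cold-regulated genes split by how far they had moved. Of 7 measured members 3 rose and 0 fell, with a median change of 1.21, and all 7 estimates were positive. No member had an unadjusted p under 0.05 downward by limma. Over all 13350 named genes 314 rose, 164 fell and 5260 estimates were positive. AT4G33980, known as COR28 and, with COR27, a link between cold and the clock, gave 9.71, 11, 21.2 and 14.3 early and 94.8, 82.1, 801 and 838 later (3.59 ± 0.12 (SE), adjusted p = 2.5e-11). COR27 gave 0.84, 1.03, 1.07 and 0.90 early and 10.7, 2.28, 115 and 121 later (2.04 ± 0.13 (SE), adjusted p = 3.9e-08). In both, the 3 h arrays were above all early ones, as the rule for a kept change requires, and the 6 h arrays were far higher still. The 3 h values of COR27 were, however, under 30. Its call was lost with 3 h alone as the later side and in a 2-group fit of the 8 arrays. LTI30, a dehydrin, was bright from the start, at 968, 787, 1378 and 1084 early and 2609, 2901, 4619.8 and 5012 later (1.81 ± 0.15 (SE), adjusted p = 7.9e-07). COR47, also a dehydrin, gave 1512, 1134, 1742 and 1190.4 and 1688, 3259, 3516 and 4216 (1.12 ± 0.18 (SE), adjusted p = 0.00087). It was not kept, since replicate 1 at 3 h lay below one of the 1 h arrays. COR15A and COR15B are chloroplast proteins that stabilise membranes in freezing. COR15B gave 17.8, 16.7, 17.3 and 12.8 early and 10.1, 19.8, 67.5 and 66.0 later (0.74 ± 0.22 (SE), adjusted p = 0.063), with the 6 h pair above the rest of the 8 arrays. COR15A gave 0.75, 7.51, 3.49 and 4.1 early and 5.68, 20.1, 45.0 and 30 later (1.21 ± 0.29 (SE), adjusted p = 0.019), with overlap, and reached 1815 and 2700.0 at 24 h. TIL, a temperature-induced lipocalin, did not pass (0.16 ± 0.13 (SE), adjusted p = 0.58).

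Genes of the cell wall moved in both directions. Expansin-like A proteins are grouped with the expansins, and whether they loosen the wall was not tested here. EXLA3 gave 18.3, 22.7, 47.8 and 38.7 early and 168, 123, 416 and 367 later (2.63 ± 0.18 (SE), adjusted p = 4.8e-08). EXLA1 gave 60.9, 97.9, 117 and 88.2 and 271, 389, 589 and 669 (2.23 ± 0.18 (SE), adjusted p = 4.3e-07), and both were higher again at 24 h than at 6 h, at 642 and 663 for EXLA3 and 1763 and 2106 for EXLA1. They were the kept changes among 18 measured expansins and expansin-like genes, which had a median of -0.01 and 0 kept falls (0 with an unadjusted p under 0.05 downward by limma). Xyloglucan endotransglucosylase/hydrolases (XTH) cut and rejoin wall polysaccharides. XTH16 gave 97.9, 55.1, 64.8 and 51.8 early and 29.5, 41.7, 24.3 and 35.7 later (-0.84 ± 0.19 (SE), adjusted p = 0.016), and XTH21 gave 70.0, 36.6, 55.3 and 36.9 and 19.3, 29.5, 14.5 and 28.9 (-0.84 ± 0.20 (SE), adjusted p = 0.021). These falls were the kept changes of 9 XTH genes, of which 6 had positive estimates (median 0.10), and with centred arrays 1 more member was kept, upward. The calls of XTH16 and XTH21 were lost without replicate 1 at 0.5, 1, 3 or 6 h. XTH20 gave 61.7, 74.1, 61.6 and 59.5 early and 81.1, 69.6, 185 and 218 later, and passed on its adjusted p with 1 overlapping 3 h array (0.86 ± 0.14 (SE), adjusted p = 0.00077). Of 8 cellulose synthase-like genes, CSLD2, which acts in root hair growth, rose by 1.07 ± 0.11 (SE), adjusted p = 1.1e-05, and CSLC04, a xyloglucan backbone synthase, rose by 0.75 ± 0.14 (SE), adjusted p = 0.0025. EXO, a wall protein tied to brassinosteroid-driven growth, gave 515, 677, 641 and 815 early and 1268, 1337, 1505 and 1194 later (1.0 ± 0.16 (SE), adjusted p = 0.00092).

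Other rises covered several functions. SRC2, a membrane-linked C2-domain protein first described as cold-regulated in soybean, gave 275, 247, 367 and 338 early and 950.1, 1555, 1592 and 1853 later (2.22 ± 0.14 (SE), adjusted p = 3e-08). The small cysteine-rich peptide PDF2.1 gave 52.0, 56.0, 68.5 and 68.6 and 144, 144, 487 and 361 (1.86 ± 0.16 (SE), adjusted p = 8e-07), and LCR69 rose by 0.85 ± 0.10 (SE), adjusted p = 2.3e-05. They were 2 of 13 measured defensin-like genes. TET8, a tetraspanin of extracellular vesicles, gave 598, 652, 833 and 756 and 1595, 1159, 2085 and 2156 (1.26 ± 0.18 (SE), adjusted p = 0.00026), and was the kept change of 15 tetraspanins, beside 1 rise and 1 fall with quantile normalization. CCOAMT, a caffeoyl-CoA methyltransferase, rose by 1.53, and AR781 by 1.63. Of 47 measured UDP-glycosyltransferases, 2 rose: UGT76D1 by 0.83, and UGT78D2, a flavonol glucosyltransferase, by 0.71. The median of the 47 was 0.01, with an unadjusted p under 0.05 upward in 4 and downward in 5, and over all 13350 named genes 314 rose and 164 fell.

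The largest fall was that of AT4G10270, a wound-responsive family gene that is known to be induced by low oxygen. Its intensity was 395, 189, 273 and 306 early and 163, 77.8, 24.1 and 26.5 later (-2.14 ± 0.25 (SE), adjusted p = 2.7e-05). The 6 h arrays were far below the rest, and the 3 h array of replicate 1 stood just under the lowest early array. With 3 h alone as the later side the change was -1.24 and did not pass. AT5G66985, also known from low-oxygen responses, gave 909, 532, 856 and 849 early and 517, 369.7, 216 and 290.0 later (-1.19 ± 0.17 (SE), adjusted p = 0.00019). In a list of 24 measured low-oxygen genes, 3 fell (these 2 and AT5G26200, -1.26 ± 0.24 (SE), adjusted p = 0.0041) and 3 rose (CML38, AT1G72940 and AT3G23170), while with centred arrays 4 rose and 3 fell, and with quantile normalization 4 and 2. The list's median was -0.51, and 7 of 24 estimates were positive, beside 5260 of 13350 over all named genes. On the adjusted p alone 4 rose and 7 fell. HRA1 (AT3G10040), a repressor of the low-oxygen response, had a change of -1.67 ± 0.31 (SE), adjusted p = 0.0025 with overlapping sides. The summed intensity of the 24 genes also differed within pairs. It was 9294 and 5673 at 0.5 h, 11042 and 11353 at 1 h, 10111 and 5918 at 3 h, and 5141 and 9292 at 6 h. Replicate 2 was the lower at 0.5 and 3 h and the higher at 6 h, and the part of this spread in the result was not tested.

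The other falls were smaller. AT5G57785 gave 285, 281, 281 and 259 early and 120.1, 117, 93.8 and 72.1 later (-1.39 ± 0.18 (SE), adjusted p = 7.4e-05). AT1G04770, of a family that responds to sulfur supply, fell by 1.34 on the log2 scale. AT3G60490, an ERF-type transcription factor, gave 64.7, 60.6, 78.3 and 64.9 and 31.7, 33.9, 15 and 20.2 (-1.16 ± 0.13 (SE), adjusted p = 1.3e-05). AT2G47560, a RING-type ubiquitin ligase, gave 152, 165, 148 and 151 and 97.6, 93.7, 52.0 and 44.7 (-1.06 ± 0.09 (SE), adjusted p = 1.1e-06). SIM (SIAMESE), an inhibitor of cyclin-dependent kinases that promotes endoreduplication, gave 366, 273, 303 and 285 and 177, 239, 127 and 129 (-0.87 ± 0.15 (SE), adjusted p = 0.0014). XERICO, a RING protein that raises abscisic acid levels, gave 189, 197, 193 and 184 and 117, 139, 77.9 and 100.1 (-0.79 ± 0.14 (SE), adjusted p = 0.0016). LHW, a bHLH factor of root vascular development, gave 184, 237, 194 and 224 and 179, 86.6, 134 and 122 (-0.68 ± 0.15 (SE), adjusted p = 0.011), and its call was lost without replicate 2 of the 0.5 or the 1 h arrays. CYP71B37, a cytochrome P450, fell by 0.63 and RALFL27, a signalling peptide, by 0.47 on the log2 scale. The falls of DRT100, TO1 (a mitochondrial thioredoxin), EMB2786 and PRA1.A1 ranged from -0.56 to -0.34 and each was lost on leaving out 1 of several arrays. SP1L3, a microtubule-associated protein, gave 349, 352, 339 and 340.1 and 279.6, 289, 257 and 249.8 (-0.35 ± 0.08 (SE), adjusted p = 0.011). With centred arrays the calls of SP1L3, DRT100 and PRA1.A1 were lost, and with a pseudocount of 1 those of AT5G66985, CYP71B37, RALFL27, XTH21, TO1, DRT100 and EMB2786.

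Several of the lists had measured members but 0 kept changes. The wider expansin, XTH and low-oxygen lists above did hold kept changes, so this describes the measured members and not whole pathways. Among 9 auxin genes the changes ranged from -0.42 to 0.84 (median -0.08), and 1 had an unadjusted p under 0.05 upward and 2 downward by limma. GH3.3, an auxin-conjugating enzyme, differed widely within pairs, at 85.1, 231, 44.9 and 264 early and 374, 43.3, 532 and 310.2 later (0.84 ± 0.54 (SE), adjusted p = 0.48). All 10 ribosome biogenesis genes had negative estimates, from -0.32 to -0.01 (median -0.12), where 5260 of all 13350 named genes had positive ones. With centred arrays 2 of the 10 were positive, and as reported 2 had an unadjusted p under 0.05. The 8 genes of starch breakdown and sugar transport ranged from -0.20 to 0.13, with 0 at an unadjusted p under 0.05 by limma. In cytokinin (2 measured), gibberellin (2), flavonoid synthesis (2), heat shock (3) and reactive oxygen (3), 1 gene in all had an unadjusted p under 0.05, downward in heat shock. LEA4-5, the single measured abscisic acid gene, stayed dim, at 3.45, 5.58, 1.40 and 6.39 early and 4.77, 13, 25.7 and 26.4 later (0.87 ± 0.21 (SE), adjusted p = 0.018), with overlap. AT3G25790, a nitrate-responsive transcription factor (HHO1), gave 137, 115, 132 and 90 and 62.9, 97.3, 42.1 and 41.6 (-0.91 ± 0.19 (SE), adjusted p = 0.0077), with overlap. Ethylene had 1 measured gene, EIN3, which did not pass (0.25 ± 0.08 (SE), adjusted p = 0.1). A list of 13 expansins and xyloglucan hydrolases had 2 genes with an unadjusted p under 0.05 upward and 0 downward by limma, and with centred arrays 1 was kept. A shorter low-oxygen list of 3 had 1 each way, and 7 Aux/IAA genes, repressors of auxin signalling, 1 each way. None of 11 tau class glutathione transferases had an unadjusted p under 0.05. The 26 cytochromes P450, in contrast, had a kept change, that of CYP71B37.

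**Figure D3:**
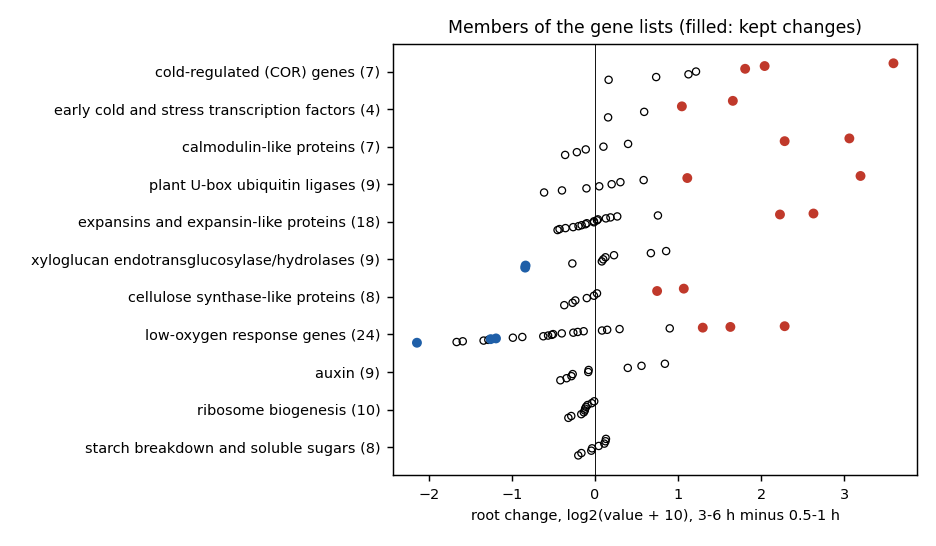
Log2 change between the later and the early root arrays for each measured member of 11 gene lists (numbers of members in brackets). Filled points are kept changes (red rises, blue falls) and open points are not. COR genes lie at or above 0.16, and ribosome biogenesis genes at or below -0.01, although 2 of these are positive with centred arrays.

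Within the later side, most differences between 6 and 3 h were upward. Tested between the pairs, 167 probe sets were higher at 6 h (0.734% of all) and 37 lower (0.163%). Of the 625 rises, 94 (15%) were also higher at 6 h than at 3 h, and of the 270 falls, 12 (4.44%) were lower. Both comparisons use the later arrays. Among rises 0 were lower at 6 h and among falls 0 were higher (2 of each at an unadjusted p under 0.05 by limma). The median of the rises was 0.72 at 3 h and 1.12 at 6 h, and at 12 and 24 h it was 1.16 and 1.19 against the same early arrays. For the falls it was -0.41, -0.57, -0.80 and -0.88 at these times. All probe sets had medians between -0.09 and -0.03. The counts rest on single arrays. Without replicate 1 of the 3 h arrays they were 518 and 219, and without replicate 2 of the 6 h arrays 77 and 7. Without replicate 1 at 6 h they were 94 and 11, and without replicate 2 at 3 h 9 were lower.

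AT1G68500, which codes for a protein of unknown function, showed the largest step of a named gene. Its intensity was 96.1 and 111 at 3 h and 1389.6 and 1529.8 at 6 h, and 34.6, 25.7, 35.6 and 39.1 on the early arrays. The 3 h arrays were above all early ones, as the rule for a kept change requires. The 6 h arrays were far above those at 3 h (3.70 ± 0.17 (SE), adjusted p = 4.5e-09). Genes were named here only where the 6 h and 3 h pairs did not overlap, so the order of the pairs was set by that rule. COR28 (AT4G33980) and COR27 followed, with differences of 3.08 ± 0.17 (SE), adjusted p = 6.3e-08, and 3.00 ± 0.19 (SE), adjusted p = 2.6e-07. AT1G16850 was 24.8 and 23.3 at 3 h, within its early range of 21.9, 9.26, 23.9 and 37.7, and 199 and 250.2 at 6 h (2.78 ± 0.22 (SE), adjusted p = 2.5e-06). CCT2, an enzyme of phosphatidylcholine synthesis, was 72.1 and 44.3 at 3 h and 221 and 226 at 6 h (1.80 ± 0.17 (SE), adjusted p = 2e-05), and reached 788 and 830.5 at 12 h. COR15B had a difference of 1.65 ± 0.31 (SE), adjusted p = 0.012, lost without replicate 1 at 3 h or either 6 h array. AT1G49220, a RING-type ligase, AT5G62360 and PUB19 rose further too, by 2.27, 2.21 and 1.66, and the PUB19 call was lost without replicate 1 at 3 h or either 6 h array. STZ, in contrast, differed by 0.11 ± 0.25 (SE), adjusted p = 0.93, which did not pass.

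Lower at 6 h than at 3 h were AT4G10270 (-1.80 ± 0.35 (SE), adjusted p = 0.018) and AT5G07580, an ERF-type transcription factor. AT5G07580 was 153 and 166 at 3 h, among its early values of 152, 124, 201 and 153, and 63.5 and 55.5 at 6 h (-1.29 ± 0.16 (SE), adjusted p = 0.00023). AT1G68360, a C2H2 zinc-finger gene, was 128 and 157 at 3 h and 63.5 and 59.5 at 6 h (-1.08 ± 0.23 (SE), adjusted p = 0.029). The 6 h values were close to those at 0.5 h (70.2 and 70.3). AT3G02910 was 455 and 481 at 3 h and 234 and 253 at 6 h (-0.91 ± 0.19 (SE), adjusted p = 0.028). ATU2AF65A, a splicing factor, fell by 0.57 on the log2 scale. The calls of AT4G10270, AT1G68360, AT3G02910 and ATU2AF65A were each lost without either 6 h array, that of AT4G10270 also without replicate 1 at 3 h, those of AT1G68360 and AT3G02910 also without replicate 2 at 3 h, and that of ATU2AF65A without either 3 h array.

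The same comparison was made on 8 shoot arrays of the same times, which share no array with the root comparison. By the same rule 901 probe sets rose in shoots (3.96%) and 1065 fell (4.68%), and with centred arrays 952 rose and 699 fell. Of the root rises, 316 of 625 (50.6%) rose in shoots too, which is 35.1% of the shoot rises, and 5 fell there. Of the root falls, 70 of 270 (25.9%) fell in shoots, which is 6.57% of the shoot falls, and 4 rose. The median shoot change was 0.64 over the root rises, -0.27 over the root falls and -0.08 over all probe sets.

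Whether the change differed between tissues was tested as an interaction. Over all probe sets 415 root changes were above the shoot change (1.82%) and 591 below (2.6%), and without replicate 2 of the 1 h shoot arrays these were 646 and 905. Of the root rises, 153 (24.5%) exceeded the shoot change and 107 (17.1%) fell short of it. Of the root falls, 37 (13.7%) lay below the shoot change and 5 above. These members were chosen by their root change, which enters the difference.

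**Figure D4:**
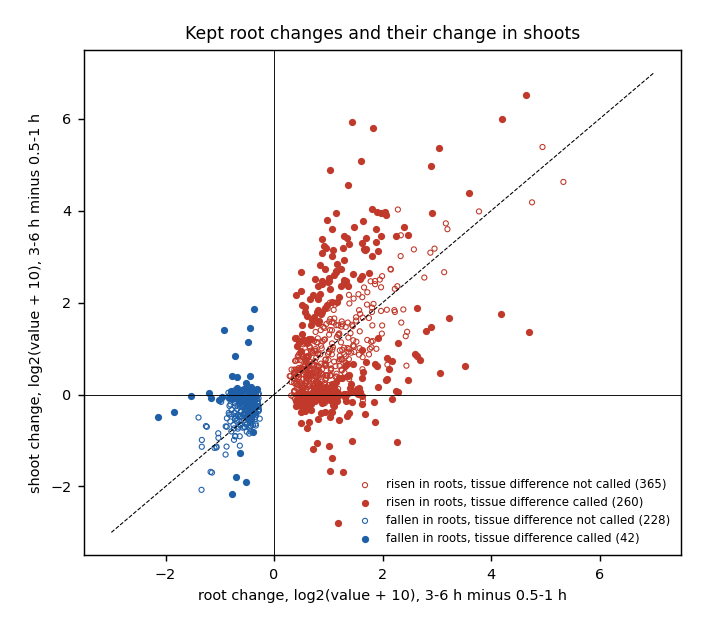
Root change (horizontal axis) and shoot change (vertical axis) on the log2(value + 10) scale for the 895 kept root changes, with the line of equal change dashed. Filled points passed the test of the tissue difference: 260 of the rises and 42 of the falls.

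The COR genes changed less in roots than in shoots. All 7 measured members had a root change below the shoot change at an adjusted p under 0.05, and all 7 rose in shoots. Some of these differences rest on early values under 30. AT4G33980 (COR28) lay between 9.71 and 21.2 early in roots and 0.37, 3.90, 0.71 and 3.18 in shoots, and at 6 h stood at 801 and 838 in roots and 820.0 and 819.7 in shoots. Its difference (-0.80 ± 0.17 (SE), adjusted p = 0.011) no longer passed with a pseudocount of 30. LTI30 rose by 4.04 in shoots, from 12.3, 27.4, 15.3 and 24.5 to 93.6, 126, 1966 and 1891, and the difference (root minus shoot) was -2.23 ± 0.22 (SE), adjusted p = 5.4e-06. Its intensity in roots was nevertheless the higher on each side, with a mean of 3786 ± 1207 against 1019 ± 1051 (SD, n = 4) on the later arrays. COR47 changed by 1.12 in roots and 3.35 in shoots (-2.23 ± 0.26 (SE), adjusted p = 3.6e-05). Its early mean was 1395 ± 285 in roots and 295 ± 148 in shoots (SD, n = 4), and the later means were 3169.5 and 3137. COR15B and COR15A were lower in roots than in shoots on both sides, with no overlap. COR15B reached 625, 302, 1698 and 1640.4 on the later shoot arrays (difference -3.63 ± 0.31 (SE), adjusted p = 1.1e-06), and COR15A had a difference of -2.43 ± 0.41 (SE), adjusted p = 0.0014.

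Other changes were larger in shoots. AT1G20030, of the thaumatin family, stayed at 11, 16.5, 11.5 and 11.9 and 15.7, 8.63, 11.3 and 11.2 in roots and rose by 4.05 in shoots (-4.12 ± 0.28 (SE), adjusted p = 1.1e-07). AT4G34950 and AT1G22570, transporters of the major facilitator superfamily, had differences of -3.87 and -3.74. AT1G51090, of a heavy metal-binding family, rose in both tissues, by 1.82 in roots and 5.80 in shoots (-3.98 ± 0.26 (SE), adjusted p = 5.4e-08). AT3G04010, a glycosyl hydrolase, had -3.74, XTH18 -2.17 and LCR69 -1.98. XTH18 was the brighter in roots from the start, at 317, 263, 341 and 255 against 10.8, 4.58, 11.2 and 7.28 in shoots. The named genes with the 2 largest root rises also rose more in shoots. AT5G62360 rose by 6.52 there (-1.87 ± 0.31 (SE), adjusted p = 0.0013) and AT1G11210 by 5.99 (-1.80 ± 0.22 (SE), adjusted p = 5.5e-05). Both were dim early, with means of 9.31 and 10.7 in roots and 16.8 and 4.67 in shoots.

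In the other direction, CML37 rose in roots while its shoot intensity was 0.59, 0.64, 0.39 and 4.13 early and 12.4, 11.6, 0.88 and 1.26 later, all dim (2.6 ± 0.28 (SE), adjusted p = 1.7e-05). EXLA3 likewise had a difference of 1.79 ± 0.25 (SE), adjusted p = 0.00023. With a pseudocount of 1 the differences of CML37, EXLA3 and COR15A no longer passed. AT5G11070 gave 32.5, 53.8, 79.3 and 66.1 early and 531, 531, 1022 and 1045 later in roots, and 511, 507, 537 and 752 and 1345, 1600.3, 755 and 365 in shoots, where the sides overlapped and the change did not pass (0.62 ± 0.22 (SE), adjusted p = 0.074). The difference was 2.90 ± 0.31 (SE), adjusted p = 1.6e-05. EXO gave 286, 452, 302 and 336 early and 210.4, 304, 90.6 and 82.5 later in shoots, where one 3 h array lay among the early ones. This was a change of -1.13 ± 0.16 (SE), adjusted p = 0.00013, against 1.0 in roots (2.13 ± 0.23 (SE), adjusted p = 1.9e-05). AT4G27280, an EF-hand calcium-binding protein gene, rose by 1.04 in roots and had a change of -1.66 with overlapping sides in shoots (difference 2.69 ± 0.25 (SE), adjusted p = 2.8e-06). AT1G49200, a RING-type ligase, rose by 1.28 and fell in shoots (-1.69; difference 2.96 ± 0.23 (SE), adjusted p = 5.5e-07). AR781 and CCOAMT had differences of 1.66 and 1.40. In AT3G07350, AT2G20670 and ZCF37 the root change did not pass (0.68, 0.14 and 0.09) and the shoot changes were -1.96, -2.21 and -1.47, with overlapping sides in AT2G20670. BZIP53 rose in roots and fell in shoots (1.13 ± 0.16 (SE), adjusted p = 0.00023).

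**Figure D5:**
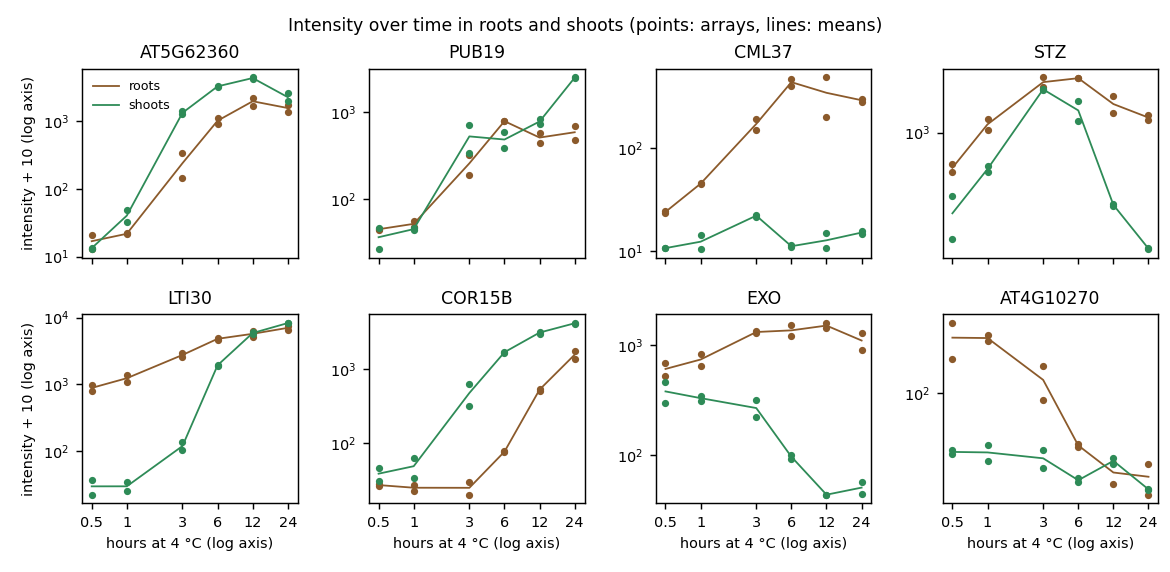
Intensity + 10 (log axis) against hours at 4 °C (log axis) in roots (brown) and shoots (green) for 8 genes, with points for arrays and lines for means of 2. LTI30 starts higher in roots than in shoots, CML37 rises in roots and stays dim in shoots, and the EXO lines move apart.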

How the data were processed

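Total RNA of 24 samples was hybridised to ATH1 arrays, and the authors deposited 1 linear intensity for each probe set. MAS5 is named by the submitters' processing notes, with a version, settings and detection calls not given in the sources used here, and the number of arrays limits the precision. In the deposited intensities each array's mean, trimmed by 2% at each end, is 100.01, so arrays had been scaled to one target. This scaling can shift the split of rises and falls. After 64 control probe sets were left out, 22746 were fitted as log2(intensity + 10), which understates the change of dim genes. limma 3.58.1 in R 4.3.3 fitted 12 group means over 24 arrays (12 residual and 4.07 prior degrees of freedom), with 2-sided p-values adjusted by Benjamini-Hochberg within each comparison. The fit was tested on simulated data with known changes. The simulated noise was independent between arrays, unlike the correlated deviations of root arrays given below, so the simulation does not cover them. The comparison in shoots and the alternatives for list members were added after seeing the data.

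In the platform annotation 13513 probe sets have 1 gene, 503 have several and 8730 have none listed; 13436 were matched to the TAIR10.1 gene table. Genes were named where 1 probe set, that of the highest mean over 24 arrays, stood for a gene. For later against early root arrays, named genes were the 12 highest and 12 lowest kept changes with a mean of at least 50 on the higher side, and as many among genes with a symbol. For 6 h against 3 h (both arrays of a time beyond the other pair) and for the tissue difference 6 were taken each way. In addition, measured members of 23 lists by locus and of 15 added lists (14 families by symbol, 1 by locus from general knowledge) could be named. Jasmonate, aquaporin and membrane lipid lists had 0 measured members. Members and lists were chosen with earlier results of these data known. Alternatives were 2 scalings, 2 pseudocounts, a filter on low values (30 on at least 2 arrays), other fits, single times and each array left out. No sequences are shown.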

Additional observations from a re-analysis of the deposited data

Results flagged for a closer look

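The 22 genes below had the highest or lowest differences between roots and shoots in the change from 0.5-1 h to 3-6 h. All passed a test of the difference itself (limma, adjusted p under 0.05). They were named by their rank among the calls of this same test, so their number was set by the naming rule. Other named genes passed too, BZIP53 and AT4G33980 among them. The root change was above the shoot change, on the log2 scale, by 2.96 in AT1G49200, 2.90 in AT5G11070, 2.69 in AT4G27280 and 2.64 in AT3G07350. It was above by 2.6 in CML37, 2.35 in AT2G20670, 2.13 in EXO and 1.79 in EXLA3. AR781, ZCF37 and CCOAMT had differences of 1.66, 1.56 and 1.40. The root change was below the shoot change in AT1G20030 (-4.12), AT1G51090 (-3.98), AT4G34950 (-3.87), AT1G22570 (-3.74) and AT3G04010 (-3.74). The same held for COR15B (-3.63), COR15A (-2.43), LTI30 (-2.23), COR47 (-2.23), XTH18 (-2.17) and LCR69 (-1.98). With a pseudocount of 1 the differences of CML37, COR15A and EXLA3 no longer passed. Single samples far from the rest were not looked for, since each group holds 2 arrays.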

How the results depend on the processing

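The alternatives were run for 108 named results (list members only where kept, and COR genes for the tissue difference). None of these changed direction, and 61 kept their call in all of them, while 1959 single values kept it and 219 lost it. Counts moved by over 1.5 times as follows, and the cause was not tested. For later against early roots (625 rises, 270 falls) the falls were 168 with centred arrays, 150 with a pseudocount of 1 and 427 with a pseudocount of 30. A 2-group fit of the 8 arrays gave 381 rises and 113 falls, 3 h alone as the later side 296 and 52, and 1 h alone as the early side 382 and 107. With 6 h alone 483 fell, and 289 rose and 19 fell with a log2 change of at least 1. For 6 h against 3 h, 19 were lower with a pseudocount of 1, 58 with 30, and 107 were higher and 12 lower in a fit of root arrays only. The tissue difference had 266 higher with a pseudocount of 1, and shoots had 699 falls with centred arrays. Leaving out 1 array gave 518 to 741 rises and 166 to 624 falls in roots, 77 to 518 higher and 7 to 219 lower at 6 h, 287 to 646 and 485 to 905 for the tissue difference, and 840 to 1120 and 786 to 1471 in shoots. A lone array was assumed to vary like the other groups. Replicate numbers were not a pairing of the root samples over all times: over 13216 probe sets, deviations of same-numbered arrays correlated at 0.31 between 0.5 and 1 h and 0.27 between 3 and 6 h, but at -0.41 to -0.12 between early and later times. With the replicate number as a block, roots had 613 rises and 246 falls, 6 h against 3 h 161 and 32, the tissue difference 388 and 574, and shoots 894 and 1007. TO1 and DRT100 lost their calls. This block takes the numbers as alike at all times, so numbers exchanged between early and later times were not tested. Of 59 named changes between later and early roots, 24 lost their call in the 2-group fit, 24 with 3 h alone and 18 with 1 h alone. Intensities under about 30 limit what can be seen: 137 rises started and 71 falls ended there.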

Other observations

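Some of the largest changes belonged to probe sets with no gene listed. Probe set 254074_at gave 2.85, 1.78, 42 and 40.9 on the early root arrays and 808, 1023, 1137 and 1084 on the later ones (5.33 ± 0.19 (SE), adjusted p = 2.9e-11). Probe set 254066_at gave 23.2, 28.6, 153 and 129.7 early and 1703, 1693, 2953 and 3049.8 later (4.95 ± 0.11 (SE), adjusted p = 6.5e-14). In the other direction, 266322_at gave 410.4, 479, 388 and 373 and 137, 118, 90 and 87.9 (-1.85 ± 0.12 (SE), adjusted p = 2.7e-08). These 3 were chosen after their values were seen.

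Described here are 2 root hair genes and 1 of 9 measured auxin genes, picked for their differences between the 2 root arrays of a time. EXPA7, a root hair expansin, was 96.6 and 47.4 at 0.5 h, 85.5 and 60.3 at 1 h, 37.7 and 119.6 at 3 h and 33.9 and 76.8 at 6 h. EXPA18, also of root hairs, was 92.5 and 52.6, 101 and 71.5, 42.2 and 119 and 32.2 and 88.8 at the same times. Replicate 1 was the brighter in both genes at 0.5 and 1 h, and replicate 2 at 3 and 6 h. GH3.3 went the other way, with replicate 2 the brighter at 0.5 and 1 h and replicate 1 at 3 and 6 h.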
